A study of Mus musculus with 10 samples.

Results

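The regions described here are the mouse autosomal sites at which a peak was called in all 6 of the analysed CUT&Tag peak lists. A peak of the nucleophosmin (NPM1) list from sham-operated hearts was taken where it overlapped, by 1 bp or more, a peak in each of the other 5 lists. Of 56007 autosomal sham peaks, 2034 met this rule (3.63%). The regions were chosen by the peak calls themselves, that is by the deposited positions of all 6 lists, so the values below are descriptions and carry no test. Each group had 1 library, and no difference has a replicate check.

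In CUT&Tag, a transposase tethered to an antibody inserts sequencing adapters into nearby chromatin. The sham list and the infarct list gave NPM1 in cardiac macrophages of wild-type (WT) mice on day 3 after a sham operation or a myocardial infarction. The untreated list and the IL-4 list gave NPM1 in macrophages grown from WT bone marrow for 7 days in 50 ng/ml M-CSF, without further treatment or with 20 ng/ml interleukin-4 for 12 hours. Histone H3 trimethylated at lysine 4 (H3K4me3) was mapped in WT cardiac macrophages (WT H3K4me3 list) and in those of Npm1 conditional-knockout mice (knockout H3K4me3 list), both on day 3 after infarction. The labels name neither the Cre driver of the knockout nor the number of animals behind a library. The remaining 4 of the 10 libraries were not analysed here.

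NPM1 is an abundant histone chaperone that shuttles between the nucleolus, where ribosomes are assembled, and the rest of the nucleus. H3K4me3 sits on the nucleosomes beside the start sites of active and poised genes and forms broad peaks over promoters rich in CG dinucleotides. A site called with both antibodies, in both kinds of macrophage and in both genotypes can be such a promoter. It can also be a stretch of repeated sequence, where reads from several copies may be placed together whatever the antibody.

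The RefSeq promoter table (GRCm38.p6) gives a window from 250 bases before to 50 bases after each start site. Among the few windows that overlapped one of the regions, some were rich in CG dinucleotides and some repeated themselves. A window can reach well beyond its region, and a repeat within it does not show that the sequence has copies elsewhere. The first 4 windows below are shown because they lie at regions classed further on as promoter-like, and capitals mark each CG dinucleotide. The last pair is shown because the windows repeat themselves, and capitals mark every copy of their most frequent 10-base word. Cggbp1 (chr16:64851751-64852050, plus strand) encodes a protein that binds CGG triplet repeats, and H3c14 (chr3:96246435-96246734, plus strand) a histone H3. Hic2 (chr16:17233337-17233636, plus strand) encodes a zinc-finger repressor and Nmt2 (chr2:3283962-3284261, plus strand) an N-myristoyltransferase. Gm32584 (chr5:36661609-36661908, minus strand) is a predicted protein-coding gene and Gm52821 (chr5:112239604-112239903, minus strand) a predicted long noncoding RNA. Each window is given 5′ to 3′ on its gene's strand.
Cggbp1: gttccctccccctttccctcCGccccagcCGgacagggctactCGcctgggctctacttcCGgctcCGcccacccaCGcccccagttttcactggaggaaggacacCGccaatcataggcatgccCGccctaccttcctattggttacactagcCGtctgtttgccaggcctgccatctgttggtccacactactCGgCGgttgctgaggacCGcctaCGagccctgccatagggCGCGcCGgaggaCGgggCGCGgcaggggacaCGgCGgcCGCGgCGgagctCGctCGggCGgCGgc
H3c14: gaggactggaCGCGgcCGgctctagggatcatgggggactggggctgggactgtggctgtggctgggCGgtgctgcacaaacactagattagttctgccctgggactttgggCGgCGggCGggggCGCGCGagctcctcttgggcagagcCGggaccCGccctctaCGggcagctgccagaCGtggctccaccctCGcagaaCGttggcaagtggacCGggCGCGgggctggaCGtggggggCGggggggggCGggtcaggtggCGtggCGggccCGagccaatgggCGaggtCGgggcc
Hic2: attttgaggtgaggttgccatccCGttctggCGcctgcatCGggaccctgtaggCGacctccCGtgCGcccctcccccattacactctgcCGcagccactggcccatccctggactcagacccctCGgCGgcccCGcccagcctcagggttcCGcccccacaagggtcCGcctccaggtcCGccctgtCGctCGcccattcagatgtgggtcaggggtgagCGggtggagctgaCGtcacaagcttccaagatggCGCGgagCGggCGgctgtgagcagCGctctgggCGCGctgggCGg
Nmt2: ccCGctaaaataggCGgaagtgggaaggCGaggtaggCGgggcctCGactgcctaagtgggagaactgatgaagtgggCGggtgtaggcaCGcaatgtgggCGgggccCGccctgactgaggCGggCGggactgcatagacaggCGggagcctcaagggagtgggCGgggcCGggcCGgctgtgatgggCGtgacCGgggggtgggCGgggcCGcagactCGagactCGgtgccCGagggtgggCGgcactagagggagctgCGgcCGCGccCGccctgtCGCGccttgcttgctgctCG
Gm32584: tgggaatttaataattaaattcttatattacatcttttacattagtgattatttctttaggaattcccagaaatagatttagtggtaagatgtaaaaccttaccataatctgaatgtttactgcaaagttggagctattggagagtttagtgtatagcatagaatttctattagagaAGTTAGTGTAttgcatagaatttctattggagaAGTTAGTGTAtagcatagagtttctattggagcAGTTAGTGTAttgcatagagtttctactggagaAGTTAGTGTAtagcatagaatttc
Gm52821: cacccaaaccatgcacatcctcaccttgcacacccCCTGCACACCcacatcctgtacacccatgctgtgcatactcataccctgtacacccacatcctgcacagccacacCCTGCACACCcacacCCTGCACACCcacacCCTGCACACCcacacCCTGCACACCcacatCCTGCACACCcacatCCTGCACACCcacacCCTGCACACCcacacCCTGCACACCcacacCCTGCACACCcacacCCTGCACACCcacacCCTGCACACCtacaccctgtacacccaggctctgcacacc

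The Cggbp1 window held 28 CG dinucleotides, that of H3c14 27, that of Hic2 25 and that of Nmt2 30. The Gm32584 and Gm52821 windows held 0. In the Gm52821 window 84.6% of the bases were identical to the base 15 positions further on, and the word CCTGCACACC occurred 12 times. In the Gm32584 window 58.4% were identical to the base 33 positions on, and its word AGTTAGTGTA occurred 4 times. Searching periods of 5 to 60 bases in this way, a measure added after these sequences had been seen, 4 of the 51 windows that overlapped a shared region (7.84%) reached 60% identity, against 0.15% of all 31396 autosomal windows. These were single windows of the noncoding RNAs Gm40237, Gm38814, Gm52821 and Gm34735, at regions outside or inside protein-coding genes and away from gene ends.

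The lists ranged from 52977 peaks in the knockout H3K4me3 list to 104514 in the IL-4 list, with 58011 in sham. Total reads were not given, but each summit's fold and p-value carry its pileup, the number of overlapping reads, and its local background. The most frequent background, which scales with depth, lay between 1.29 reads for sham and 4.18 for IL-4. Of 15 macrophage identity genes, 12 had an H3K4me3 peak at a gene end in the WT list and 14 in the knockout list, beside 59.0% and 63.5% of all autosomal protein-coding genes. The same counts were 2 and 1 of 10 cardiomyocyte genes, 1 and 5 of 8 fibroblast genes, 3 and 4 of 8 endothelial genes, 2 and 2 of 7 neutrophil genes, and 2 and 4 of 8 T and B cell genes. The part of such cells in the results was not tested.

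Sharing with the other lists fell off steeply and was uneven. The sham peaks overlapped a peak of the IL-4 list in 39.2% of cases, of the WT H3K4me3 list in 29.5%, of the infarct list in 29.1%, of the untreated list in 20.3% and of the knockout H3K4me3 list in 11.2%. None of the 5 lists covered 25261 sham peaks, 10356 were covered by 1 list, 7779 by 2, 6027 by 3, 4550 by 4 and 2034 by all 5. Among the 4550 peaks that missed 1 list, the missing list was knockout H3K4me3 for 2512, untreated for 1867, WT H3K4me3 for 89, infarct for 61 and IL-4 for 21. The number of shared regions was therefore set mainly by the knockout H3K4me3 and untreated lists. The shared regions made up between 1.97% of the IL-4 list and 4.08% of the untreated list. The bases common to all 6 lists formed 2106 intervals of 676 kb in total, with a median of 262 bp.

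The regions stood high and wide in the sham list, and this was a property of overlap in general, since both measures rose with each further list that covered a peak. The median sham fold, the ratio of summit pileup to local background, was 3.50 for peaks found in no other list, 3.54, 3.85, 4.07 and 4.77 for peaks in 1 to 4 others, and 6.67 for the shared regions. Their middle 50% lay between 4.61 and 9.88 and their whole range ran from 1.61 to 43.5. The median width rose over the same series from 200 bp to 228, 257, 299, 373 and 505 bp. The shared regions spanned 200 to 3017 bp in the sham list, with 50% of them between 379 and 728 bp. In the sham list, a q-value above 0.05 was deposited for 1.92% of the shared regions and for 28.5% of the peaks found in no other list. Over all 6 lists, 1798 of the shared regions (88.4%) had a q-value of 0.05 or less in every list.

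**Figure D1:**
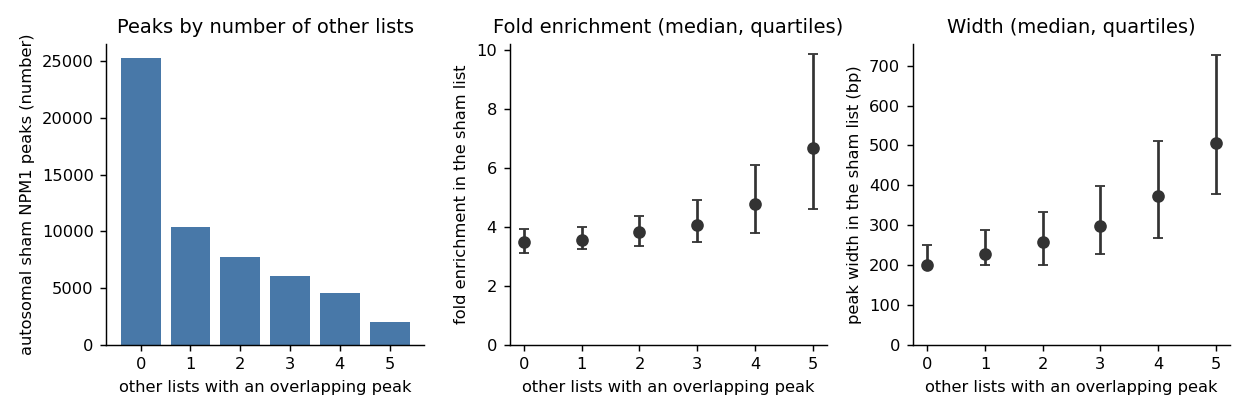
Autosomal sham NPM1 peaks by the number of other lists with an overlapping peak (horizontal axes). Bars give the number of peaks, and points with bars give the median and quartiles of fold enrichment and of width in bp. The 2034 peaks covered by all 5 lists had a median fold of 6.67 and a median width of 505 bp, against 3.50 and 200 bp for peaks in no other list.

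Within each list the shared regions ranked high, least so in the knockout H3K4me3 list. Their median fold was 6.67 in sham, 5.21 in infarct, 4.98 in untreated, 6.18 in IL-4, 5.11 in WT H3K4me3 and 4.48 in knockout H3K4me3. The median within-list percentiles were 95.5, 92.8, 89.3, 96.1, 88.8 and 59.7 in the same order. The ranks of the regions were alike across lists to differing degrees. Spearman's rho of the fold over the 2034 regions ran from 0.42 for untreated and knockout H3K4me3 to 0.85 for infarct and IL-4. These are descriptions over regions that share libraries, not replicates.

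At the edge of the rule, the smallest overlaps were 2 bp at chr6:98733167-98733408, 3 bp at chr8:20042202-20042443 and 4 bp at chr1:95238974-95239197, with sham folds of 4.37, 2.97 and 3.66. Just outside it, peaks at chr10:81996706-81996982 and chr6:146714415-146714843 abutted a peak of the missing untreated or infarct list with a gap of 0 bp, and that at chr17:25348028-25348309 missed a knockout H3K4me3 peak by 1 bp. Their sham folds were 5.24, 2.41 and 3.60. Few regions sat near the edge. The smallest overlap with any list was 200 bp or more in 1728 regions (84.96%) and 50 bp or less in 44, while 58 of the 4550 peaks that missed 1 list lay within 100 bp of a peak of that list.

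Most shared regions lay away from gene ends. A window of 1 kb on either side of an end of a protein-coding gene held 113 of the 2034 regions (5.56%, 95% Wilson interval 4.64% to 6.64%, counting error only), beside 4.15% of all autosomal sham peaks. A further 950 (46.7%) lay inside genes and 971 (47.7%) outside, against 40.9% and 54.9% of all sham peaks. Peaks found in no other list gave 3.77%, 42.0% and 54.2%. Those found in 4 other lists gave 7.12%, 41.7% and 51.2%, a higher gene-end share than that of the shared regions. The gene-end share of the shared regions was thus closer to that of the whole sham list and of the untreated list (2.58%) than to those of the infarct (15.3%), IL-4 (12.2%), WT H3K4me3 (20.8%) and knockout H3K4me3 (27.8%) lists. A start site of the RefSeq promoter table lay within 1 kb of 71 regions (3.49%), beside 1.89% of all sham peaks. The share was 5.32% among peaks found in 4 other lists. Exons, introns and untranslated parts could not be told apart with the gene table used.

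By type of gene, 9.88% of the regions overlapped a long noncoding RNA gene, beside 9.46% of all sham peaks. Pseudogenes were overlapped by 49 regions (2.41%, beside 1.68%). Of the 3 small cytoplasmic RNA genes in the table, Rn7s1 and Rn7s2, which encode the 7SL RNA of the signal recognition particle, each held a shared region. The count was 0 for transfer RNA and small nuclear RNA genes, but only 6 and 1 of all sham peaks overlapped these, too few to read anything from it.

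The regions were sorted into 3 classes by place and by the width of the peaks. A region was called promoter-like where it lay in a gene-end window and overlapped an H3K4me3 peak of 1000 bp or more in both H3K4me3 lists. It was called narrow where it lay away from gene ends and the widest peak of any list was under 1000 bp, and intermediate otherwise. Promoter-like regions numbered 27 (1.33%), narrow regions 1347 (66.2%) and intermediate regions 660 (32.4%). The gene-end window takes either end of a gene. A start site of the promoter table lay within 1 kb of 19 of the 27 promoter-like regions (70.4%). Those at Psmb8, Gpr137b and Rps29 were among the regions without one. In the lists as a whole, 4.31% of WT and 23.9% of knockout H3K4me3 peaks were 1000 bp or wider, and among those at gene ends 15.7% and 60.2%. The narrow regions were split between 646 inside genes and 701 outside, and the intermediate ones between 86 at gene ends, 304 inside and 270 outside. The promoter-like count moved with the width asked for, to 65 at 500 bp and to 6 at 1500 bp. With a −log10 q of 1.3 or more in every list it was 19.

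To set libraries of different depth beside each other, the summit pileup was divided by the genome-wide background of its list, giving a multiple of background. The lowest multiple that was called among the shared regions was 4.65 in the sham list, 2.97 in infarct, 3.82 in untreated, 2.87 in IL-4, 2.74 in WT H3K4me3 and 2.81 in knockout H3K4me3. Ratios between lists are therefore shaped in part by the calling threshold.

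Beside the other shared regions, the promoter-like regions were low and short in the sham and untreated lists and high and broad in the other 4. Their median multiples were 6.20 in sham, 16.2 in infarct, 6.11 in untreated, 16.5 in IL-4, 15.8 in WT H3K4me3 and 99.2 in knockout H3K4me3. Their median widths were 256, 1168, 335, 1107, 1251 and 1749 bp in the same order, of which the last pair was used to choose them. Their multiples in the H3K4me3 lists are therefore not independent of the choice. Over all autosomal peaks the median multiple was 6.20 in sham and 6.87 in untreated, and the median width 233 and 271 bp. Within these lists the promoter-like regions were thus ordinary. Sham and untreated also had the lowest genome-wide backgrounds, 1.29 and 1.31 reads, and the median promoter-like pileup was 8 reads in each. The narrow regions differed at both ends of the order. They had medians of 17.8, 8.91, 10.7, 11.2, 9.25 and 7.23 times background, so that sham was the highest list and knockout H3K4me3 the lowest. The intermediate regions resembled the narrow ones, with 16.7, 9.90, 12.2, 12.4, 8.90 and 7.23.

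**Figure D2:**
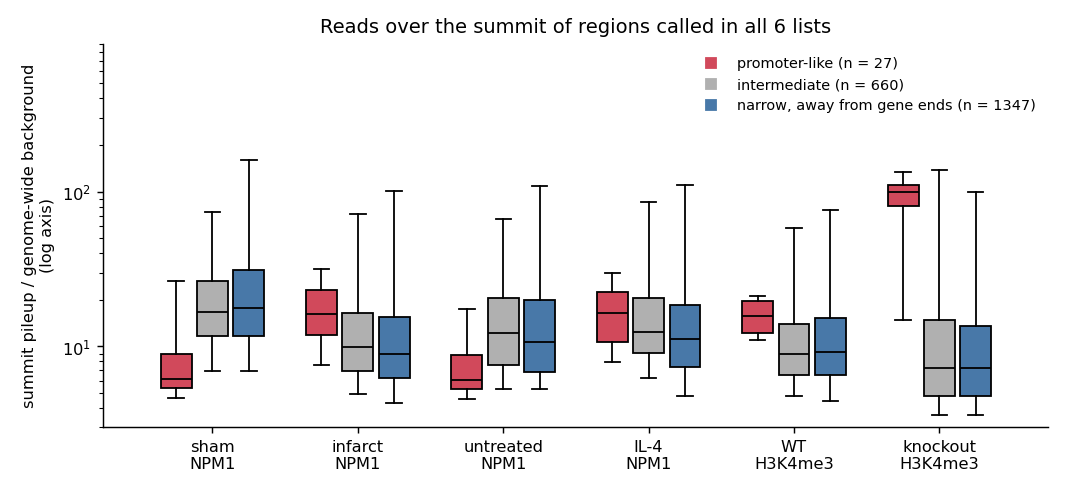
Summit pileup over the genome-wide background of each list (log axis) for the 3 classes of regions called in all 6 lists. Boxes give median and quartiles over regions and whiskers the 5th and 95th percentiles. The promoter-like boxes sit below the others in the sham and untreated lists and above them in the knockout H3K4me3 list, where the median was 99.2.

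The ratio of the infarct to the sham multiple was above 1 in 22 of the 27 promoter-like regions, with a median of 1.95, and in 139 of the 1347 narrow regions, with a median of 0.51. Among all sham peaks with an infarct peak it was above 1 in 9.83% (median 0.61), beside 36.8% at gene ends (median 0.82), 10% inside genes (median 0.62) and 7.2% outside (median 0.60). The IL-4 to untreated ratio was above 1 in 24 of 27 promoter-like regions (median 1.88) and in 635 of 1347 narrow ones (median 0.97). Over all untreated peaks with an IL-4 peak the share was 11.6%, at gene ends 61.6%, inside genes 15% and outside 7.52%. The knockout to WT H3K4me3 ratio was above 1 in 25 of 27 promoter-like regions (median 5.49) and in 415 of 1347 narrow ones (median 0.81). Over all overlapping WT and knockout H3K4me3 peaks it was above 1 in 89%, with a median of 5.35, beside 99% at gene ends (median 6.94), 85% inside genes (median 3.21) and 73.5% outside (median 1.85). The low ratio was not particular to the narrow regions. Its median was 0.83 over all shared regions, 0.86 over the intermediate ones and 0.78 over those outside genes. The narrow class also leaves out any region with a peak of 1000 bp or more in any list. That width was reached by 23.9% of knockout but 4.31% of WT H3K4me3 peaks, which the whole-list values keep. With 1 library per group these ratios compare libraries and not conditions.

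Kdm1b, whose product removes methyl groups from lysine 4 of histone H3, shares its region (chr13:47043573-47043772) with Tpmt, which encodes a thiopurine methyltransferase. Its fold was 3.50 in sham, 11.2 in infarct, 4.32 in untreated, 12.3 in IL-4, 6.86 in WT H3K4me3 and 9.29 in knockout H3K4me3. The sham and untreated values were the low pair, while the widths ran from 200 bp in sham to 1654 and 1679 bp with H3K4me3. Its smallest overlap with any list was 20 bp, the least of the promoter-like regions. The sham summit had a pileup of 7 reads and a −log10 q of 1.41, and the untreated summit 9 reads. The region between Cggbp1 and Zfp654, a zinc-finger gene (chr16:64851786-64851985), had folds of 3.93, 9.87, 3.89, 9.07, 9.05 and 7.39 in the same order. Its multiples were 6.20, 14.9, 6.11, 11.0, 21.2 and 106, so that sham and untreated were again the low pair and knockout H3K4me3 the highest library. Hic2 (chr16:17233413-17233612) showed a smaller gap between the NPM1 libraries, with multiples of 5.43 in sham, 10.2 in infarct, 6.11 in untreated and 7.89 in IL-4.

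Histone genes of the chromosome 3 group appeared at a pair of neighbouring regions. The region shared by H2ac18 and H3c14 (chr3:96246262-96246461) was promoter-like, with multiples of 6.20 in sham, 22.8 in infarct, 6.87 in untreated, 27.8 in IL-4, 14.4 in WT H3K4me3 and 120 in knockout H3K4me3. The region shared by H2ac19 and H3c15 (chr3:96239366-96239565) gave 5.43, 26.7, 6.11, 28.0, 14.7 and 119, and was classed as intermediate because its WT H3K4me3 peak was 788 bp wide. These genes are near-identical copies, so reads may have been divided between them.

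Other promoter-like regions lay at genes of varied function. Among them were Rap2a, a small GTPase gene, Ago1, which encodes an Argonaute protein of microRNA silencing, Garnl3, Gpr137b, a lysosomal membrane protein gene, and B3glct, a glucosyltransferase gene. Scarb2 encodes a lysosomal membrane receptor, and its multiples were 8.53 in sham, 6.93 in infarct, 5.34 in untreated, 8.37 in IL-4, 11.3 in WT H3K4me3 and 83.9 in knockout H3K4me3. Scarb2 and Ago1 were thus 2 of the 5 promoter-like regions without a higher infarct than sham value. Psmb8, an immunoproteasome subunit gene (chr17:34201936-34203245), was wide in all 6 lists, from 1058 bp in untreated to 1433 bp in IL-4. Its sham multiple of 37.2 was the highest of the promoter-like regions in that list, beside 38.3 in infarct, 13.7 in untreated, 29.7 in IL-4, 25 in WT and 134 in knockout H3K4me3.

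Further regions of the class lay at Smim7 and Tmem38a, Dazap1 and Gamt, Hdlbp and Septin2, Klf11, Spryd7, Rxylt1, Nmt2, Sec16a, Tmem267, Elp2 and Slc39a6, Rps29 and Duxf3, and at the predicted genes Gm46238 and Gm46965 and the vomeronasal receptor gene Vmn2r2. Vmn2r2, Gm46238, Gm46965 and Duxf3 met the rule without looking like the others. At Vmn2r2 (chr3:64171242-64172856), a receptor gene of the vomeronasal organ, the multiples were 34.1 in sham, 13.5 in infarct, 17.6 in untreated, 23.2 in IL-4, 12.3 in WT H3K4me3 and 9.64 in knockout H3K4me3. The knockout H3K4me3 library was the lowest there, and the peak was between 1414 and 1678 bp wide in every list. The knockout multiples at Duxf3, a copy of the tandemly repeated Dux gene, at Gm46238 and at Gm46965 were 12.9, 14.9 and 16.1. Without these, every other promoter-like region had a knockout multiple of 59.8 or more.

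**Figure D3:**
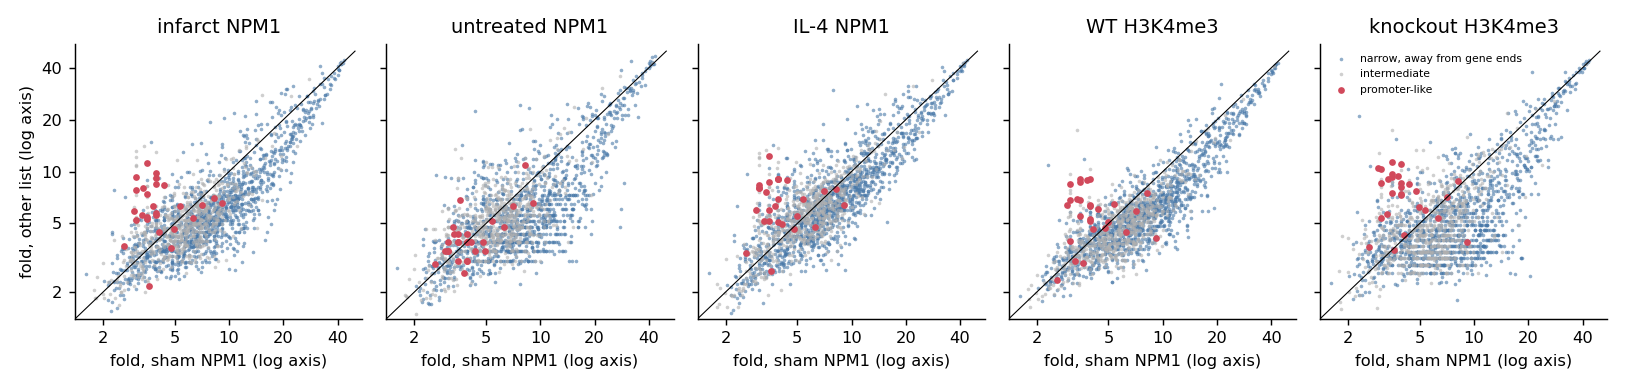
Fold enrichment of the 2034 regions in the sham list against that in each other list (log axes, with the line of equality), coloured by class. The promoter-like regions form a group at low sham fold (median 3.93) that lies mostly above the line in the infarct, IL-4 and H3K4me3 panels, and the 55 regions with a fold of 20 or more in all lists, close together by that limit, lie along the line.

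The promoter windows divided in the same way, but the promoter-like class was chosen by wide H3K4me3 peaks, which form over promoters rich in CG dinucleotides. Windows under equally wide peaks outside the shared regions were not set beside them. Of the 51 windows that overlapped a shared region, 13 belonged to 10 promoter-like regions and had a median of 28 CG dinucleotides, all 13 with 15 or more. The median was 7 over all autosomal windows and 14 over the 20085 protein-coding ones, of which 48.1% held 15 or more. The 9 windows at narrow regions had a median of 6, and 0 of them reached 15. The 29 at intermediate regions lay between, with a median of 20. Split by the knockout H3K4me3 peak, 33 windows under a peak of 1000 bp or more had a median of 26 CG dinucleotides, and 18 under a narrower peak a median of 4. The word GGGCGG, the core of the GC box bound by SP and KLF factors, was found on either strand in 13 of 13 promoter-like windows, beside 36.0% of all windows and 47.0% of protein-coding ones. The word overlaps the CG count by its own letters, and a match is not evidence of binding.

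**Figure D4:**
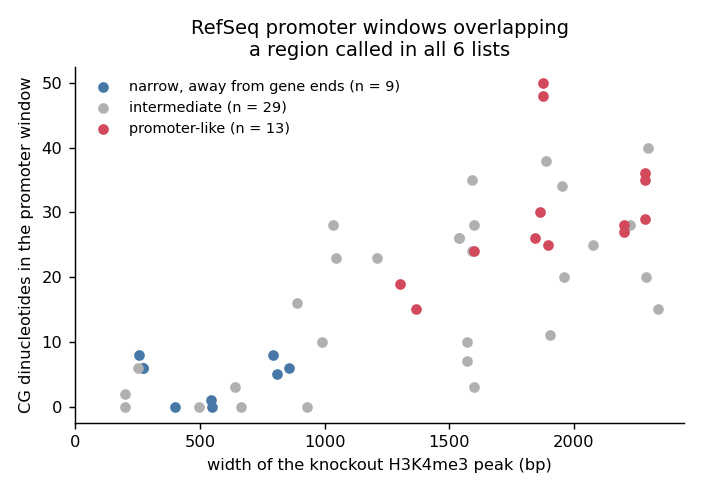
CG dinucleotides in the 51 RefSeq promoter windows that overlap a region called in all 6 lists, against the width in bp of the knockout H3K4me3 peak there, coloured by class. The promoter-like windows hold 15 or more CG dinucleotides, and the windows at narrow regions hold 8 or fewer.

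Some intermediate regions shared the low sham and high infarct pattern of the promoter-like class and were kept out by a WT H3K4me3 peak under 1000 bp or by a start site inside a gene. At Nr2c2, a nuclear receptor gene (chr6:92091984-92092317), the folds were 3.06 in sham, 12.2 in infarct, 4.75 in untreated, 11.0 in IL-4, 9.68 in WT H3K4me3 and 10.3 in knockout H3K4me3, with a WT H3K4me3 width of 782 bp. Fkbp3, an immunophilin gene, had multiples of 4.65 in sham and 28.4 in infarct, and Brpf1, a bromodomain protein gene, 4.65 and 50.2. Sf1, a splicing factor gene, had 4.65 and 38.3. The sham summits at Nr2c2, Fkbp3, Brpf1 and Sf1, and at the promoter-like Nmt2, each had a pileup of 6 reads and a −log10 q of 0.86. Of the 12 regions inside a gene with a start site within 1 kb, Add3, the gene of the membrane skeleton protein adducin 3, had multiples of 6.20 in sham, 30.7 in infarct, 9.16 in untreated, 28.5 in IL-4, 30.1 in WT H3K4me3 and 162 in knockout H3K4me3. Ing1, whose product binds H3K4me3, Tob1, Ipo5 and Tef also had higher infarct than sham and higher IL-4 than untreated multiples. Other start sites did not show it. Igf2 and Wap had infarct multiples of 7.59 and 5.94 against 10.9 and 12.4 in sham, and their knockout H3K4me3 multiples were 7.63 and 8.03. Dffb, Zfp433 and Paip1 were also lower in infarct, with 10.2, 4.62 and 9.90 against 41.9, 8.53 and 23.3 in sham. Their knockout H3K4me3 multiples were high all the same, at 122, 100 and 68.3.

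The strongest regions had summits at nearly the same position in all 6 lists. A fold of 20 or more in every list, a limit set after the values had been seen, was reached by 55 regions, of which 3 lay at gene ends, 13 inside genes and 39 outside. Their median folds were 32.6 in sham, 30.5 in infarct, 31.1 in untreated, 31.3 in IL-4, 29.5 in WT H3K4me3 and 31.4 in knockout H3K4me3. The highest fold of any region was 42.9 to 47.1 in the 6 lists, so the limit itself held the folds of these regions close together. The summits of the 6 lists fell within a median of 18 bp, beside 200 bp for all shared regions and 464 bp for the promoter-like ones. A summit range of 50 bp or less was found in 48 of the 55 regions and in 294 of all 2034, of which 270 were narrow and 0 promoter-like. The classes were set by peak width, and summits can lie further apart in wider peaks. The contrast between classes in summit range therefore follows in part from the class rule. The multiples of background, which the limit did not use directly, differed more between lists, with a median of 307 in sham and 122 to 173 in the other 5 lists.

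The highest of these inside a gene lay in Chl1, a neural cell adhesion gene (chr6:103649000-103649410). Its fold was 43.5 in sham, 44.4 in infarct, 47.1 in untreated, 44.2 in IL-4, 42.9 in WT H3K4me3 and 44.5 in knockout H3K4me3, with summits within 12 bp. The next were in Lama1, a laminin gene (chr17:67741225-67741681), Flt1, the VEGF receptor 1 gene (chr5:147611301-147611704), Dop1b (chr16:93789060-93789515), Ppp1r9a (chr6:4923712-4924318) and Gm525 (chr11:89081593-89082151), with folds between 29.6 and 39.8. At gene ends, the region beside Wls, which encodes the carrier of secreted Wnt proteins (chr3:159939294-159939785), had folds of 41.6, 42.4, 42.7, 42.7, 40.99 and 42.2 in the same order and widths of 469 to 492 bp. It had no start site of the promoter table within 1 kb. The region at the end of Lars2, the mitochondrial leucyl-tRNA synthetase gene (chr9:123461789-123462297), varied more, with folds of 15.3, 27.9, 23.6, 28.4, 15.1 and 21.9. The infarct and IL-4 libraries were highest there, and sham and WT H3K4me3 lowest.

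Outside genes, the highest were chr12:3109750-3110188, with folds between 41.4 and 46.5 and summits within 2 bp, and chr1:195371596-195372064, with folds between 39.99 and 43.4. They were followed by chr16:98107368-98107866, chr19:61331184-61331663, chr12:120028605-120029109, chr12:93576901-93577333, chr11:121982238-121982658 and chr13:120321271-120321750. On 17 of the 19 autosomes, the last peak called in any list lay within 1 kb of a shared region, and in 15 of these the region had a fold of 20 or more in all 6 lists. The exceptions were chromosomes 9 and 15.

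The shared regions were then grouped by distance. Joined where the gap was 50 kb or less, they formed 1472 single regions, 115 pairs and 56 groups of 3 or more with 332 regions (16.3%). The median distance to the nearest other shared region was 215 kb, and 18.8% had one within 10 kb. Among all sham peaks, which are far more numerous, the median distance to the nearest was 10.6 kb, and 48.5% had one within 10 kb. Of the 2413 bins of 1 Mb with a sham peak, 1110 held a shared region, 46 held 5 or more, and the fullest held 43. In the bins with 5 or more, 17.8% of the sham peaks were shared, beside 3.03% in the other bins. The bins were picked by their count of shared regions, so the direction of this difference was fixed by that choice. The share by chromosome ran from 2.498% on chromosome 7 to 4.64% on chromosome 8.

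**Figure D5:**
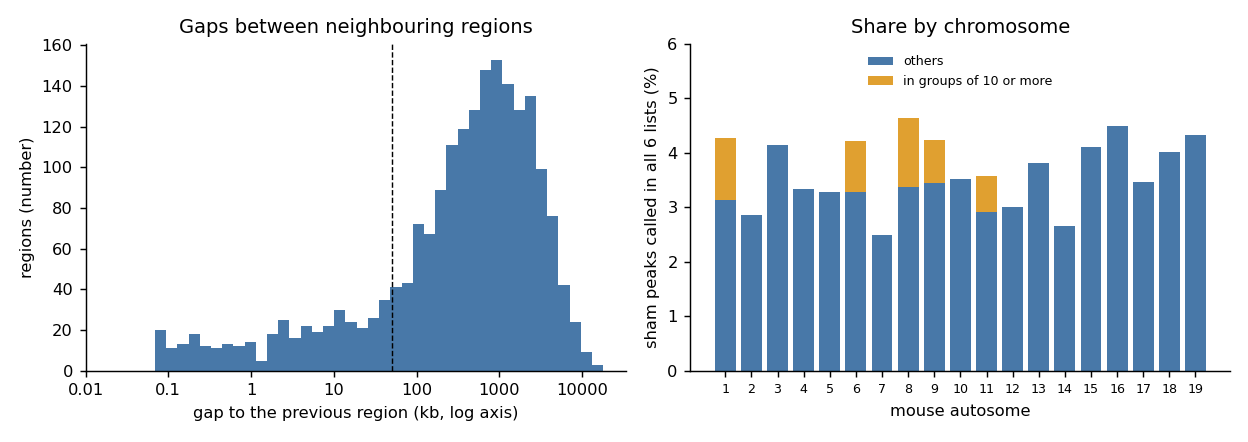
Left, gaps between neighbouring shared regions in kb (log axis), with a dashed line at the 50 kb limit for a group. Right, the percentage of sham peaks on each autosome that were called in all 6 lists, with the part in groups of 10 or more regions stacked in yellow. Groups of 10 or more lay on chromosomes 1, 6, 8, 9 and 11.

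The 9 groups of 10 or more regions held 157 regions (7.72%) and differed from the single regions in height. Their median sham fold was 3.05, against 7.48 for single regions, while their median multiple of background was 29.5 against 17.1. The local background was a median of 11.4 reads in these groups and 1.86 at single regions, so the whole surroundings of a grouped region were high. The largest group was chr1:84962649-85340305, with 26 of its 91 sham peaks shared. It spans the predicted genes Gm38510, Gm7609 and Gm7592 and 9 pseudogenes. Its neighbour chr1:85454276-85651614 had 19 of 63 sham peaks shared and spans Sp110, Sp140 and Sp100, genes of nuclear body proteins. The densest of the large groups was chr9:3000168-3038295, which holds no annotated gene and had 23 of 28 sham peaks shared. Its median multiples were 347 in sham, 303 in infarct, 1477 in untreated, 383 in IL-4, 218 in WT H3K4me3 and 150 in knockout H3K4me3. The untreated library stood highest there, and the median fold in sham was only 2.57.

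A group at chr11:3100335-3196858 had 19 of 39 sham peaks shared and covers most of Sfi1, the gene of a centrin-binding protein, together with the pseudogene Pisd-ps1. Sfi1 held 14 shared regions, more than any other gene. The 3 neighbouring groups on chromosome 8, between 20017090 and 20709967, held 14, 14 and 13 regions with 9 pseudogenes among them. A smaller group at chr10:58223813-58239792, of 6 regions, lay in the Dux array and included the promoter-like region of Duxf3. Another of 6, chr7:59735848-59779269, lay in Snhg14, the imprinted host transcript of arrays of small nucleolar RNAs.

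The pair of groups on chromosome 6 departed from the rest. They lie at chr6:47651661-47686632, with 15 of 20 sham peaks shared, and at chr6:47738002-47778287, with 14 of 23. The first contains Rn4.5s, annotated as a ribosomal RNA gene, and predicted genes such as Gm40364 and Gm40369. Its median multiples were 38.0 in sham, 58.7 in infarct, 35.9 in untreated, 77.0 in IL-4, 39.0 in WT H3K4me3 and 205 in knockout H3K4me3. Those of the second were 42.6, 68.2, 36.6, 81.0, 42.6 and 229. Both thus showed higher infarct than sham, higher IL-4 than untreated and higher knockout than WT multiples, as at the promoter-like regions. The other 7 groups of 10 or more had lower knockout than WT values. The likeness is in multiples of the genome-wide background, which include the high surroundings of the pair. Its median sham folds were 2.45 and 2.91, over local backgrounds of 20.2 and 18.7 reads, beside a median fold of 3.93 at the promoter-like regions. At Gm40364 (chr6:47680737-47681269) the knockout H3K4me3 peak was 1508 bp wide with a multiple of 221, and the WT H3K4me3 peak was 563 bp wide with a multiple of 50.3. The folds there were 4.26 in knockout and 2.72 in WT, over local backgrounds of 128 and 53.5 reads. None of the 29 regions of the pair was promoter-like by the rule.

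Shared regions at genes were few. Of 20665 autosomal protein-coding genes, 119 (0.576%) had one at an end and 34 (0.165%) had a promoter-like one. A gene-end peak in each of the 6 lists, not necessarily at the same place, was found at 221 genes (1.07%), of which 114 had a shared region. Among the gene lists examined, a shared region at an end was found at Rps29 of 32 ribosomal protein genes and at H2ac18 of 19 replication-dependent histone genes. The count was 0 of 15 macrophage identity genes, of which 14 had a gene-end peak in the infarct list, 14 in IL-4, 3 in sham and 1 in untreated. Over all autosomal protein-coding genes these shares were 52.6%, 53.1%, 11.3% and 6.55%. The count was also 0 of 29 genes of mTORC1 and TSC signalling, the nutrient-sensing pathway, of which 29 had a peak in infarct and 4 in sham. At 0.576% of all genes, a count of 0 in lists of this size is near the background and is not a result about these lists.

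Rps29, which encodes a protein of the small ribosomal subunit (chr12:69159243-69159442), had multiples of 6.98 in sham, 17.2 in infarct, 5.34 in untreated, 16.5 in IL-4, 13.0 in WT H3K4me3 and 75.9 in knockout H3K4me3. The infarct and IL-4 libraries were above their NPM1 partners. Npm1 itself had no shared region, and the nearest lay 81.1 kb away. There was none at Tsc1 and Tsc2, which restrain mTORC1, at Mtor, or at Kdm5b, an H3K4 demethylase gene, where the nearest lay 191, 355, 471 and 34.9 kb away.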

How the data were processed

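The 6 peak lists come from 1 CUT&Tag library each. The submitters' processing notes list MACS2 2.2.7.1, Bowtie2, deepTools and bcl2fastq 2.17, with build mm10. Their settings, duplicate handling and any control library were not given in the sources used here. The deposited score equals 10 times the deposited −log10 p to within 1, and the deposited fold is a ratio of summit pileup to local background. Both −log10 p and −log10 q are the authors' values, and the smallest −log10 p was 2.01. The summit position is another deposited column.

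Pileup and background were solved from fold and −log10 p, within 0.001 for 100% of summits. Genes, start sites and sequences came from RefSeq GRCm38.p6 tables, which hold 21887 protein-coding genes without strand. Repeats were not annotated, so no region is called a repeat. Positions are 1-based. Python 3.11.15, numpy 2.4.6, pandas 2.3.3, scipy 1.17.1 and matplotlib 3.10.9 were used, and the code was tested on simulated lists. With 1 library per group no test over samples was run.

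The members, gene lists and limits were chosen with earlier results of these data known. Regions were named by the highest of their lowest within-list fold percentiles: 15 promoter-like, 8 outside and 6 inside genes, with the 5 largest groups and genes of the lists. Further regions, including those at gene ends or with a start site nearby, were named after their values were seen. Alternatives were other overlaps, q and fold limits, gene-end windows, widths and gaps, and leaving out each list. A result at 1 gene is not reported here.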

Additional observations from a re-analysis of the deposited data

Results flagged for a closer look

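Chromosomes X and Y were left out by the rule but held 38 sham peaks with a peak in all 5 other lists, a signal in peaks that the comparisons above did not use. Chromosome X had 27 of 1091 sham peaks (2.47%), with a median fold of 6.80, and chromosome Y 11 of 913 (1.20%), with a median fold of 7.72.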

How the results depend on the processing

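The number of shared regions was 2034. It fell to 627 with a −log10 q of 5 or more and to 758 with a fold of 4 or more in every list, and rose to 3901 without the untreated list and to 4546 without the knockout H3K4me3 list. Under the other 10 settings it lay between 1597 and 2123. The gene-end share of 5.56% became 4.42% by midpoint, 10.2% with a 2.5 kb window, 3.44% with 0.5 kb, 11.0% over all gene types and 3.19% with a −log10 q of 5 or more. The 27 promoter-like regions became 65 with H3K4me3 peaks of 500 bp, 6 with 1500 bp and 3 with a −log10 q of 5 or more. The share in groups of 3 or more, 16.3%, became 9.05% with a 10 kb gap, 19.3% with 100 kb, 11.2% after joining regions within 1 kb, 14.6% with a −log10 q of 1.3 or more and 12.4% with 5 or more. With a −log10 q of 5 or more the median sham percentile of 95.5 became 99.1, and the 119 genes became 20. Under the other 17 of 36 settings the results moved by less than 1.5 times or their counting interval. The alternatives by q for the promoter-like regions, groups, percentiles, genes and ratios were chosen after seeing the data. No paired analysis was possible because each group had 1 library. The genome-wide background, which scales with depth, was 1.29 reads in sham, 1.31 in untreated and 2.49 in knockout H3K4me3, and the part of depth in the number of shared regions was not tested.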
